A study of Rattus norvegicus with 35 samples.

Results

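Liver expression was compared between rats fed triadimefon and rats fed myclobutanil, both at 500 ppm in the feed. This is 1 pair of triazole fungicides given at the same level and for the same time, with 5 arrays on each side, or 10 of the 35 arrays of the series. All probe sets on the array were used except the Affymetrix control probe sets. The animals were Wistar Han IGS rats exposed from gestation day 6 to postnatal day 92, and each array held RNA of a single animal. The untreated controls (0 ppm, 7 arrays) are given beside both groups. Sex and litter of the animals are not stated in the labels. Testis is the tissue in the extraction protocol, but liver is the tissue in the titles and in the labelling protocol. The deposited score of albumin (Alb), the main plasma protein made by hepatocytes, averaged 5.10 in the triadimefon and 6.00 in the myclobutanil group. The median score over all genes was 0.29, so the samples were treated as liver.

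Both compounds carry a triazole ring and a chlorinated benzene ring. Triadimefon is a ketone whose benzene ring is joined through an ether oxygen, and myclobutanil is a nitrile with a butyl side chain. Triazoles are used against fungi because the ring binds the haem iron of the fungal sterol demethylase CYP51, which blocks sterol synthesis. The mammalian enzyme, encoded by Cyp51, does the same step in cholesterol synthesis. When sterols in the endoplasmic reticulum run low, the transcription factor SREBP2 is released and switches on most genes of the cholesterol pathway. Triazoles are also known in rodent liver as ligands or activators of the nuclear receptors CAR and PXR, which switch on cytochrome P450 (P450), conjugation and transport genes, with Cyp2b and Cyp3a genes as the usual readouts. The aryl hydrocarbon receptor (AhR) switches on Cyp1a genes.

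All values below are the authors' deposited scores or differences of scores, triadimefon minus myclobutanil. The sources used here give neither the scale nor the log base of the score, so a difference is not a fold change. The arrays of the groups were not alike in a measure of RNA integrity. Labelling starts at the 3′ end of a transcript, so the gap between the scores of control probe sets at the 3′ and the 5′ end of 1 transcript (3′ minus 5′) grows when the RNA is shorter. Averaged over GAPDH and β-actin, this 3′–5′ difference lay between 0.469 and 0.577 on the 5 triadimefon arrays. It was 2.45, 0.521, 0.808, 0.551 and 1.73 on myclobutanil replicates 1 to 5, so replicates 1 and 5 stood far above all others of the pair. The group means were 0.518 ± 0.0479 (SD, n = 5) for triadimefon and 1.21 ± 0.849 (SD, n = 5) for myclobutanil. The difference of -0.695 had a two-sided exact permutation p of 0.0556 (252 assignments, smallest possible p 0.00794).

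**Figure D1:**
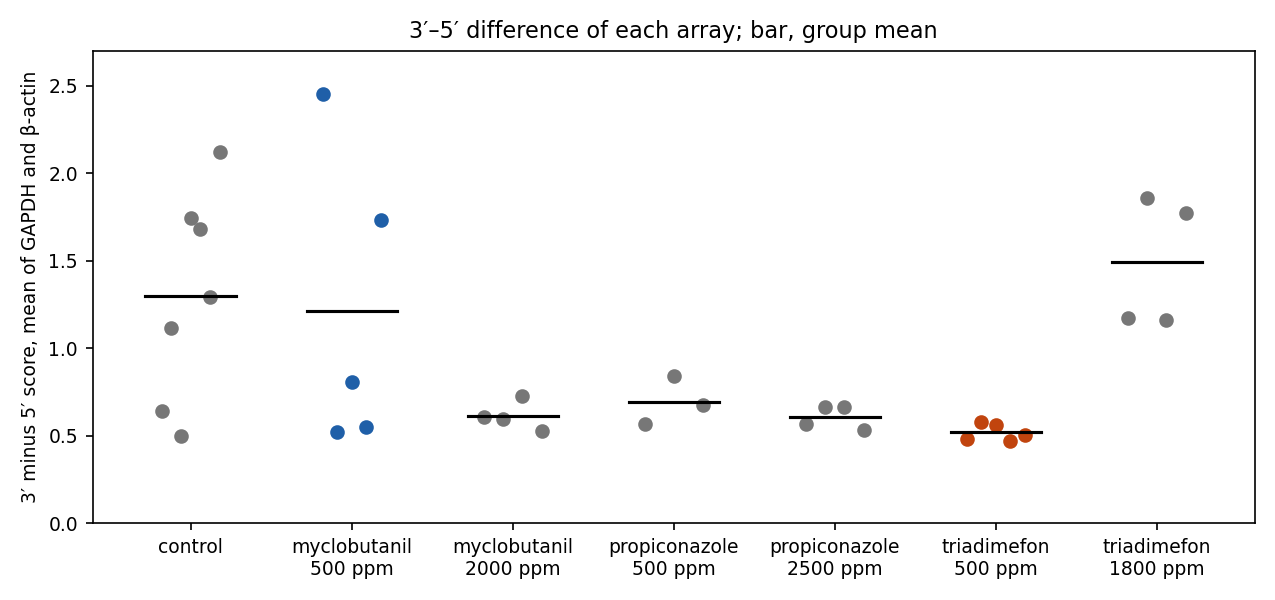
The 3′ minus 5′ score of each array (vertical axis, mean of GAPDH and β-actin, score units) is shown by group, with a bar at the group mean. The 5 triadimefon 500 ppm arrays (red) lie between 0.469 and 0.577, and myclobutanil 500 ppm (blue) reaches 2.45.

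Scores across the array moved with this measure. Its slope had an adjusted p under 0.05 at 14625 of 31042 probe sets (47.1%), 11635 of them with higher scores where the 3′–5′ difference was larger. The 3′–5′ difference was therefore a covariate in the limma fit of all 7 groups of the series, and the comparison was also made without it, and without the 9 arrays of high GAPDH difference (the high-GAPDH arrays, myclobutanil replicates 1 and 5 among them). Values from these alternatives stand beside many of the results that they move. Because the groups differ in the covariate, integrity and compound can be told apart only as far as the fitted slope is right. Myclobutanil replicates 1 and 5 also had the widest spread of scores of the pair (SD over all probe sets 1.02 and 0.858). On the triadimefon arrays this SD was 0.725 to 0.778. After quantile normalisation 5992 slopes past the threshold were upward and 5512 downward. RNA integrity and the spread of an array's scores cannot be told apart here.

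Triadimefon and myclobutanil were not separated at any single probe set after adjustment. 0 of 31042 probe sets (0%) had a Benjamini-Hochberg adjusted p under 0.05 in limma, and the smallest adjusted p was 0.971, so this or more holds for every gene named below. Without the covariate the count was again 0 (0%), with a smallest adjusted p of 0.236. At an unadjusted p under 0.05 there were 1375 probe sets (4.43%) with the covariate, 397 higher and 978 lower with triadimefon. Without it there were 5934 (19.1%), 878 higher and 5056 lower. Among the 14217 genes, each read from 1 probe set, the median difference was -0.02 and the median SE 0.0522. 118 genes (0.83%) were higher and 472 (3.32%) lower at an unadjusted p under 0.05. On the deposited scores, unadjusted for the covariate, the arrays of both groups did not overlap at 33 genes (0.232%) where triadimefon was higher and at 357 genes (2.51%) where it was lower.

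A missed threshold does not show that the compounds act alike, so the intervals matter. The 95% interval of the difference lay within ±0.25 for 11050 genes (77.7%), within ±0.5 for 13656 (96.1%) and within ±1 for 14190 (99.8%). These shares count dim genes too, and 31.0% of all genes had a mean score below 0. For dim genes an interval near 0 does not show that the compounds act alike. Intervals reached past 0.5 for Cyp2b and Cyp3a23-3a1, which are described below. Two-sided unadjusted limma p-values are given from here on as descriptions of single genes, and none of them passed the adjusted threshold.

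Cholesterol synthesis was the list with the highest median among the 41 gene lists, in the fit with the covariate. 18 of its genes were analysed here, and in all 18 the difference was above 0, with a median of 0.17 against -0.02 for all genes. 36.2% of all genes had a difference above 0. 5 of the 18 were higher with triadimefon at an unadjusted p under 0.05 (118 of 14217 genes, 0.83%), and none was lower. The 5 were Sqle, Acat2, Idi1, Lss and Msmo1. Without the covariate the median was 0.09, with 14 of 18 genes above 0. Without the high-GAPDH arrays it was 0.20, with 18 of 18. Genes of a pathway are not independent replicates, and the list was chosen with earlier results of these data known.

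The start regions of 4 of those 5 genes are shown because the 5 had the smallest unadjusted p among the pathway's genes. Another reason is that SREBP2 acts at such regions together with the factors NF-Y and SP1. Sqle, the member of smallest p, is left out because the table of start regions held no entry for it. The RefSeq table (build GRCr8) held 15 of the 18 measured members, each from 250 bases before to 50 bases after the start. They lie at chr1:50100590-50100889 on the plus strand for Acat2, chr17:66547475-66547774 on the minus strand for Idi1, chr20:12118181-12118480 on the minus strand for Lss and chr16:29746863-29747162 on the plus strand for Msmo1. Capitals mark the NF-Y box (CCAAT) and the GC box (GGGCGG), each on either strand, and no marked match overlaps another.
Acat2: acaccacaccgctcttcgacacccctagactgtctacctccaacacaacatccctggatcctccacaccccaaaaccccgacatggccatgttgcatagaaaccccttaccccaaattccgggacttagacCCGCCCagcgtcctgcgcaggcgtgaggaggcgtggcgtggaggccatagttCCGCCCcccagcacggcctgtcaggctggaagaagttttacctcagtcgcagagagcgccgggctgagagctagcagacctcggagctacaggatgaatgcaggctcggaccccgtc
Idi1: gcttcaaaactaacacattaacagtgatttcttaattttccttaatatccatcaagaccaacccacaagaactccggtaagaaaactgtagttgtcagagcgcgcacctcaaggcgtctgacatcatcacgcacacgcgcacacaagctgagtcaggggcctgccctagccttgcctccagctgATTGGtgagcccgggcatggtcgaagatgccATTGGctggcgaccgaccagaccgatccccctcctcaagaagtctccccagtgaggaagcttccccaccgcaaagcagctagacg
Lss: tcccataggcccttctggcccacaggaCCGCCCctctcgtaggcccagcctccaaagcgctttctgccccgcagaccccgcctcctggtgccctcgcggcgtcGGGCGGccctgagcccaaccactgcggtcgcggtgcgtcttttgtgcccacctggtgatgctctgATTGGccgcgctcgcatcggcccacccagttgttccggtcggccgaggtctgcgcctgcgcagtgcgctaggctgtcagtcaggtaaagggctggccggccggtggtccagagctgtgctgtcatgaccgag
Msmo1: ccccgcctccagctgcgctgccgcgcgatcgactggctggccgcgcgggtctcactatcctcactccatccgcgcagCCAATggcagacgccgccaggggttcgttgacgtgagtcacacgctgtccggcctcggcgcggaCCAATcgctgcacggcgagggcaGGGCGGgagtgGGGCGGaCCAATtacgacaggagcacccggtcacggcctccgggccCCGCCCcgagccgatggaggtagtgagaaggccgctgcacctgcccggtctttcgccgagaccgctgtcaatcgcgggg

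Msmo1 holds 3 NF-Y boxes and 3 GC boxes in this window, Lss 1 and 2, Idi1 2 and 0, and Acat2 0 and 2. The NF-Y box was in 12 of the 15 members, against 37.5% of 33469 promoters of the same 300 bases in the table. The GC box was in 12 of 15, against 33.1%. The core of the sterol regulatory element, written TCACNCCAC and sought on both strands, was in 0 of 15, against 1.12% of all promoters. With a match so rare, 0 of 15 does not show that such elements are missing from these genes. These are matches of letters in a short window and not binding sites.

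Sqle encodes squalene epoxidase, the first oxygen-requiring step of sterol synthesis. Its score was 1.24, 1.12, 1.36, 1.29 and 1.27 on triadimefon replicates 1 to 5. On the myclobutanil arrays it was 0.79, 0.79, 0.77, 0.91 and 0.73. Every triadimefon array lay above every myclobutanil array, and also above the highest control (1.07, median of the controls 0.839). The difference was 0.45 ± 0.114 (SE), with a 95% interval of 0.22 to 0.69 and an unadjusted p of 0.000501 in limma. It stayed between 0.42 and 0.60 over the 24 settings tried. These include the arrays divided by their SD, a setting whose value is not in score units. In a fit of the 10 arrays alone without the covariate its adjusted p was 0.0422.

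Idi1 encodes isopentenyl diphosphate isomerase, which makes the allylic building block of all isoprenoids. Its scores were 2.49, 2.09, 2.44, 2.38 and 2.11 with triadimefon. They were 1.91, 1.74, 1.60, 1.48 and 1.58 with myclobutanil. The groups did not overlap, and the control arrays ran from 1.35 to 2.10. The difference was 0.70 ± 0.231 (SE; 95% interval 0.23 to 1.18; unadjusted p 0.0052). A second Idi1 probe set gave 0.53 ± 0.174, and it had an adjusted p of 0.0428 in limma when animals numbered 3000 and above were left out. None of the 10 arrays compared here carries such a number. The arrays left out were control replicates 5, 6 and 7 and triadimefon 1800 ppm replicates 2, 3 and 4, all of them high-GAPDH arrays. That setting therefore changes the controls, the fitted slope and the estimate of the spread.

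Acat2, the cytosolic thiolase that starts the pathway from acetyl-CoA, scored 0.99, 0.78, 0.86, 0.98 and 1.08 with triadimefon. With myclobutanil it scored 0.84, 0.63, 0.66, 0.67 and 0.65. Only myclobutanil replicate 1, the array of the largest 3′–5′ difference, reached into the triadimefon range. The difference was 0.31 ± 0.0846 (SE; unadjusted p 0.00102). Lss, lanosterol synthase, which closes the sterol ring system, differed by 0.17 ± 0.0644 (unadjusted p 0.014). Msmo1, the sterol oxidase acting after Cyp51, differed by 0.40 ± 0.183 (unadjusted p 0.0392). In both the arrays overlapped.

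**Figure D2:**
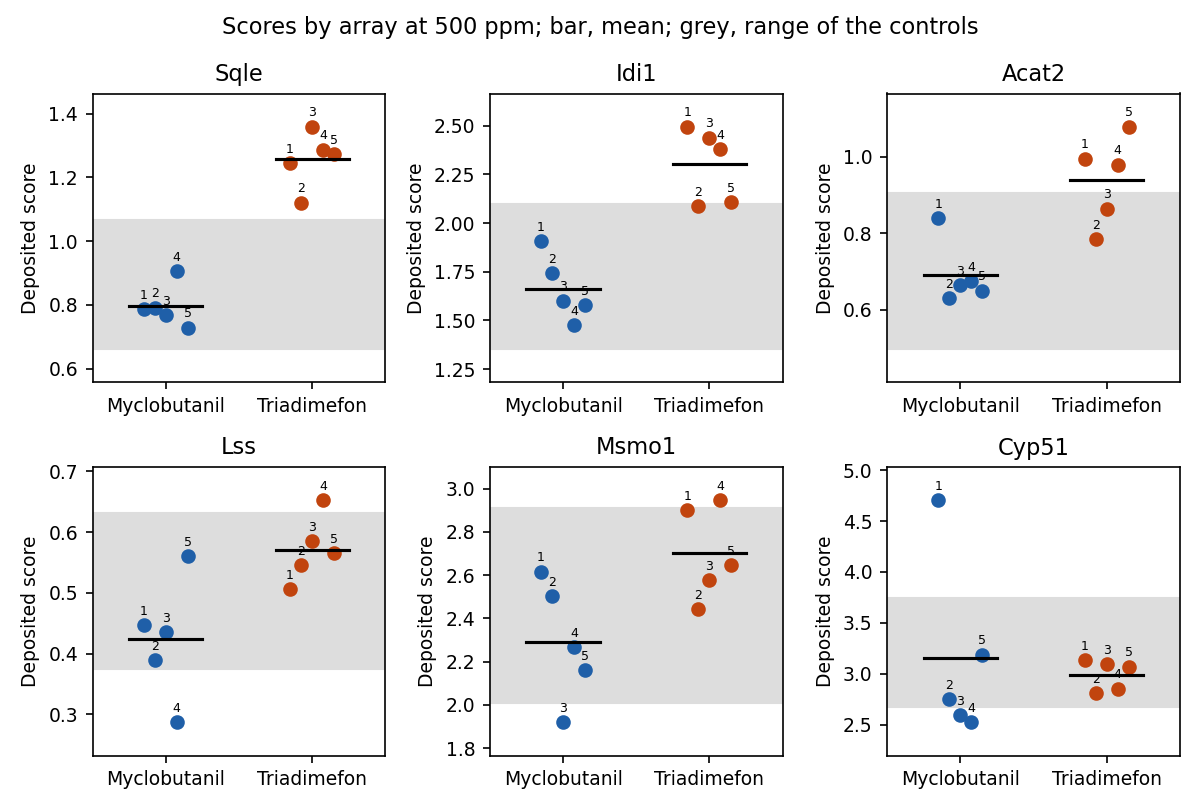
Deposited scores (vertical axis, score units) of 6 cholesterol synthesis genes on each array at 500 ppm, with replicate numbers, bars at the group means and the control range in grey. Sqle and Idi1 do not overlap between the groups, and for Cyp51 myclobutanil replicate 1 stands at 4.70.

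Cyp51 itself, the sterol demethylase, was less clear. It scored 3.13, 2.81, 3.09, 2.85 and 3.07 with triadimefon and 4.70, 2.75, 2.59, 2.52 and 3.19 with myclobutanil. The triadimefon arrays lay close together, while myclobutanil replicates 1 and 5, those of high 3′–5′ difference, were the highest of their group. The difference was 0.31 ± 0.204 (95% interval -0.11 to 0.73; unadjusted p 0.141), and -0.16 without the covariate. A second Cyp51 probe set of lower score gave 0.37 ± 0.105 (unadjusted p 0.00155).

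The other 12 measured members had differences from 0.04 (Nsdhl, which removes methyl groups after the Cyp51 step) to 0.26 (Tm7sf2, a sterol reductase, 0.12 without the covariate). Sc5d, a sterol desaturase, differed by 0.20 ± 0.104 and Fdps, farnesyl diphosphate synthase, by 0.23 ± 0.184 (0.04 without the covariate). Fdft1, squalene synthase, differed by 0.15 ± 0.105 and Dhcr7, which makes cholesterol in the last step, by 0.17 ± 0.208 (0.03 without the covariate). Sc5d, Ebp, Pmvk and Cyp51 were the 4 members below 0 without the covariate. Against the controls, over the 18 members, the median difference in the fit with the covariate was 0.18 for triadimefon and 0.01 for myclobutanil. Both comparisons use the same control arrays, whose 3′–5′ difference was larger than that of the triadimefon arrays. The deposited Cyp51 score averaged 2.99 with triadimefon and 3.12 in the controls, against a fitted difference of 0.40. For Sqle the deposited means were 1.26 and 0.886. In the fit with the covariate the differences were as follows. Sqle differed from the controls by 0.36 with triadimefon and by -0.09 with myclobutanil, and Idi1 by 0.60 and -0.10.

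**Figure D3:**
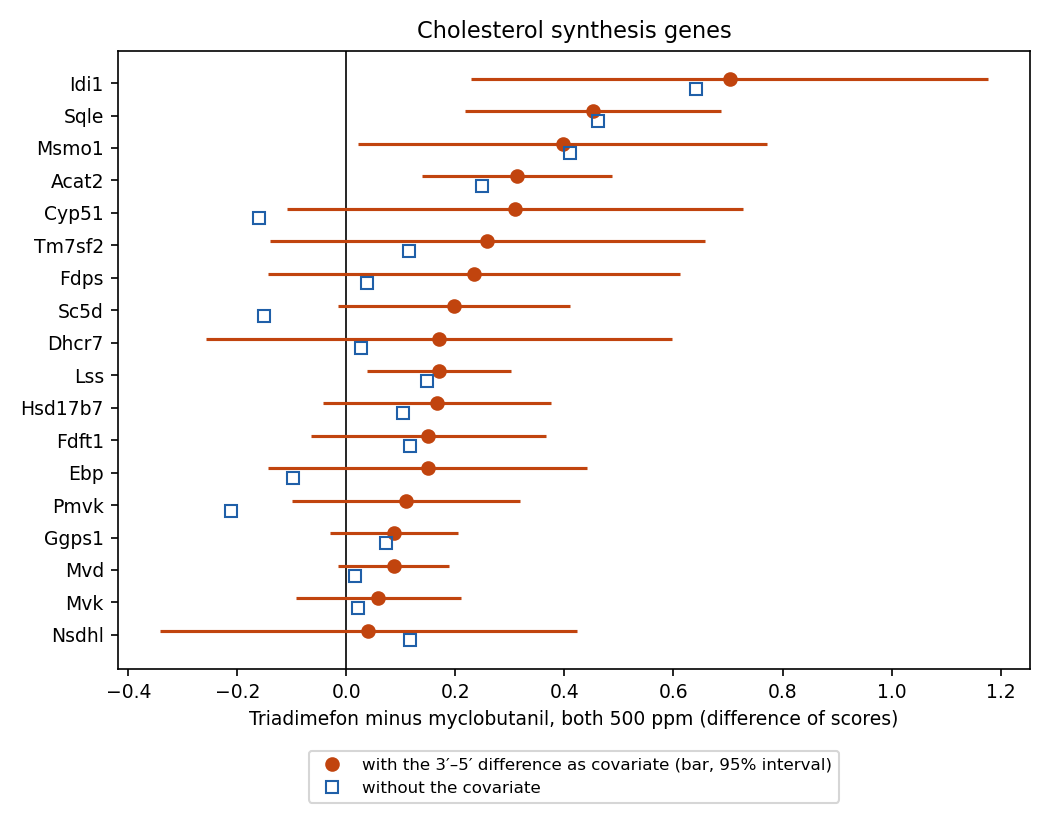
Difference of scores between triadimefon and myclobutanil at 500 ppm (horizontal axis) for the 18 measured cholesterol synthesis genes, with the 3′–5′ covariate (filled, bar for the 95% interval) and without it (open squares). All 18 filled points lie above 0 and 14 of the 18 open squares do.

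The genes that sense and move sterols did not share one direction. Of 15 measured members of the list of sterol regulation and uptake, 6 had a difference above 0 and the median was -0.01 (-0.16 without the covariate). Stard4, a carrier of cholesterol between membranes, was higher with triadimefon by 0.36 ± 0.120 (unadjusted p 0.00605), but by 0.14 without the covariate. Its other probe sets differed by 0.12 and 0.21. Srebf2, which encodes SREBP2, differed by 0.04 ± 0.0776, and Insig1, which holds SREBP2 back, by -0.19 ± 0.255. Srebf2 turned to -0.17 without the covariate and -0.02 without the high-GAPDH arrays, and Insig1 was at -0.34 without the covariate and -0.09 without the high-GAPDH arrays. Abcg5 and Abcg8 encode the partners that form the transporter that puts sterols into bile. Abcg5 scored 0.30, 0.23, 0.75, 0.55 and 0.40 with triadimefon and 0.06 to 0.19 with myclobutanil. Its arrays did not overlap, nor did those of Abcg8, but both overlapped once the scores were adjusted for the covariate. The differences were 0.23 ± 0.129 and 0.11 ± 0.0976.

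Fatty acid and triglyceride synthesis had a median difference of -0.03 over 23 genes, 5 of them above 0, and -0.19 without the covariate (4 above 0) and -0.02 without the high-GAPDH arrays (11 above 0). Scd, the stearoyl-CoA desaturase, differed by -0.64 ± 0.501 and Srebf1, its regulator, by -0.34 ± 0.255, both with overlapping arrays. Without the high-GAPDH arrays these were -0.23 and -0.17, and Srebf1 was -0.60 without the covariate. Me1, malic enzyme, which supplies NADPH to this pathway, differed by 0.26 ± 0.132 and its other probe set by 0.38 ± 0.133. Among 30 targets of PPARα and fatty acid oxidation genes, 17 were above 0 and the median was 0.03, with -0.09 without the covariate (12 above 0) and 0.06 without the high-GAPDH arrays (18 above 0). Cyp4a8, a fatty acid hydroxylase, scored 1.51, 1.44, 1.27, 1.17 and 1.70 with triadimefon and 0.89, 0.95, 0.94, 0.88 and 0.76 with myclobutanil. The arrays did not overlap, and the highest control was at 1.03. The difference was 0.45 ± 0.212 (unadjusted p 0.0418). Acot4, an acyl-CoA thioesterase, differed by 0.34 ± 0.140 (0.21 without the covariate).

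Among the drug-metabolising genes that CAR and PXR control, Cyp2b, Aldh1a1 and Ugt2b1 stood higher above the controls with either compound than the compounds stood apart. The probe set annotated to both Cyp2b1 and Cyp2b2, which cannot tell these genes apart, scored 4.45, 3.75, 4.12, 3.77 and 3.93 with triadimefon. With myclobutanil it scored 5.21, 3.46, 3.43, 3.36 and 4.34. All 10 arrays lay above the highest control (3.03), and the groups overlapped. The difference from the controls was 1.79 with triadimefon and 1.48 with myclobutanil. The difference between the compounds was 0.31 ± 0.326, with a 95% interval of -0.36 to 0.98. It was 0.04 without the covariate and 0.58 without the high-GAPDH arrays.

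Cyp3a23-3a1, a PXR target of a family with similar members, scored 4.10, 3.94, 4.24, 3.83 and 4.01 with triadimefon. It scored 6.82, 3.97, 3.81, 3.72 and 4.60 with myclobutanil. Myclobutanil replicate 1 stood far above the other arrays. The difference was 0.07 ± 0.301 (95% interval -0.55 to 0.69), and -0.56 without the covariate. Cyp3a9 differed by 0.28 ± 0.264, but by -0.16 without the covariate and 0.44 without the high-GAPDH arrays. Ces2c, a carboxylesterase, differed by 0.18 ± 0.184. Aldh1a1, an aldehyde dehydrogenase, stood 0.71 and 0.69 above the controls with triadimefon and myclobutanil and differed by 0.02 ± 0.285 between them (-0.06 without the covariate and 0.24 without the high-GAPDH arrays). Por, the reductase that feeds electrons to P450 enzymes, differed by 0.20 ± 0.169 (0.02 without the covariate).

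Over the 14 measured genes of the CAR and PXR phase I list, 8 differences were above 0 and the median was 0.02. The direction of the list depended on the setting: its median was -0.28 without the covariate (5 above 0) and 0.19 without the high-GAPDH arrays (12 above 0), the latter close to the 0.20 of cholesterol synthesis. Only Alas1, the first enzyme of haem synthesis, had an unadjusted p under 0.05, at -0.41 ± 0.192 (p 0.0437), and the arrays overlapped. It was -0.20 without the high-GAPDH arrays, and 3.32% of all genes were lower at that level. Of 58 P450 genes 2 were higher and 2 lower at an unadjusted p under 0.05, against 0.83% and 3.32% of all genes. Their median difference was -0.03, with -0.16 without the covariate and 0.01 without the high-GAPDH arrays. Among the receptors, Nr1i3 (CAR) differed by 0.12 ± 0.129 and Nr1i2 (PXR) by -0.14 ± 0.0991 (0.08 without the covariate and -0.09 without the high-GAPDH arrays). The list of 17 receptors and partners had a median of -0.01 (-0.13 without the covariate).

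Conjugation and transport genes had medians of 0.02 in each list, and their direction too depended on the setting. Phase II conjugation had 17 of 30 differences above 0, with a median of -0.13 without the covariate (8 above 0) and 0.09 without the high-GAPDH arrays (23 above 0). The transporters had 9 of 16 above 0, with a median of -0.13 without the covariate (5 above 0) and 0.05 without the high-GAPDH arrays (10 above 0). Ugt2b1, a glucuronosyltransferase, was 1.01 above the controls with triadimefon and 0.79 with myclobutanil, and differed by 0.22 ± 0.225 (-0.06 without the covariate and 0.36 without the high-GAPDH arrays). Nat2, an N-acetyltransferase, was the list's gene of smallest p, at 0.15 ± 0.0513 (unadjusted p 0.0084), with arrays that did not overlap before adjustment for the covariate and did after it. Among the transporters, Abcb1a, the P-glycoprotein pump that exports drugs, scored 0.30, 0.37, 0.33, 0.06 and 0.25 with triadimefon. It scored 0.20, -0.02, -0.16, -0.06 and 0.16 with myclobutanil. Replicate 4 of triadimefon lay within the myclobutanil range and the other 4 above it. The difference was 0.34 ± 0.102 (unadjusted p 0.00278), and a second probe set gave 0.28 ± 0.0935. Abcc4, an export pump for conjugates, differed by 0.10 ± 0.0429 (0.03 without the covariate), and Abcc3, a related pump, by 0.02 ± 0.0901.

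The largest single difference upward was Cyp1a1, the best known AhR target. It scored 2.22, 1.69, 0.14, 0.33 and 1.52 with triadimefon and -0.01, -0.15, 0.59, 0.02 and 0.73 with myclobutanil. Triadimefon replicates 1, 2 and 5 stood above all control and myclobutanil arrays, and replicates 3 and 4 lay within the control range of -0.11 to 0.34. The difference was 1.08 ± 0.402 (95% interval 0.25 to 1.91; unadjusted p 0.0124). Cyp1a2 differed by 0.34 ± 0.274 (0.02 without the covariate). Of 8 measured AhR targets, 6 had a difference above 0, the median was 0.10, and Cyp1a1 and Nqo1 were higher at an unadjusted p under 0.05 (0.83% of all genes were). Nqo1, a quinone reductase that is also a target of the stress factor NRF2, differed by 0.76 ± 0.354 (unadjusted p 0.0415), and by 0.42 without the covariate. Its scores with myclobutanil were 1.89, 0.61, 1.39, 1.39 and 2.14, which overlapped those with triadimefon (1.41 to 2.36). The 20 NRF2 targets had 14 differences above 0 and a median of 0.05, with -0.02 without the covariate (10 above 0) and 0.15 without the high-GAPDH arrays (15 above 0). Gclm, a glutathione synthesis subunit, differed by 0.32 ± 0.152, and by -0.07 without the covariate.

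**Figure D4:**
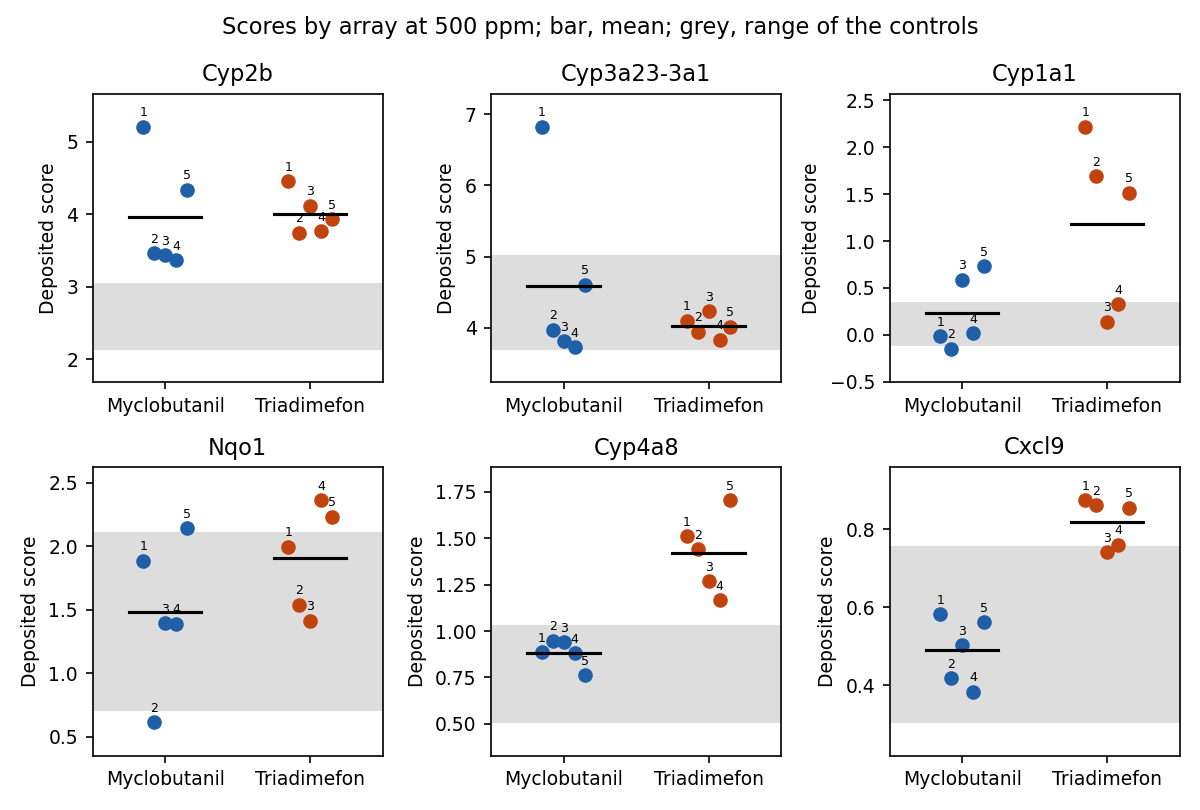
Deposited scores (vertical axis, score units) of 6 genes on each array at 500 ppm, with replicate numbers, bars at the group means and the control range in grey. All arrays of both compounds lie above the controls for Cyp2b, Cyp1a1 splits the triadimefon arrays, and Cyp4a8 and Cxcl9 do not overlap between the groups.

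The breakdown of amino acids and the urea cycle had the lowest median of the 41 lists in the fit with the covariate, at -0.18. 1 of its 27 measured genes was above 0, and 2 were lower at an unadjusted p under 0.05 (3.32% of all genes were). On the deposited scores, unadjusted for the covariate, 2 were lower with triadimefon without overlap (2.51% of all genes were). Hal, histidine ammonia-lyase, scored 2.15, 1.88, 2.01, 2.37 and 2.12 with triadimefon and 3.01, 2.55, 2.41, 2.48 and 3.10 with myclobutanil. No triadimefon array reached the lowest myclobutanil array or the lowest control (2.54). After adjustment for the covariate the groups overlapped, and the difference was -0.46 ± 0.199 (unadjusted p 0.0297). 16 of the list's 27 genes had a slope past the threshold, against 48.4% of all genes. Its median was -0.44 without the covariate and -0.06 without the high-GAPDH arrays, where 7 genes were above 0. Hepatocyte markers (-0.65) and testis markers (-0.13) were the lowest lists in those settings. The part of the slope in this result was not tested.

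Bile acid synthesis and glucose metabolism lay on the same side. For bile acid synthesis 1 of 17 genes was above 0 and the median was -0.08, but without the high-GAPDH arrays it was 0.02 with 9 of 17 above 0. Cyp7a1, the rate-limiting enzyme of bile acid synthesis, differed by -0.59 ± 0.413, and Nr0b2 (SHP), which represses it, by -0.45 ± 0.274. Glucose metabolism had 2 of 16 genes above 0 and a median of -0.12, with -0.24 without the covariate (2 above 0) and -0.07 without the high-GAPDH arrays (5 above 0). Pygl, glycogen phosphorylase, was at -0.25 ± 0.164 (-0.48 without the covariate and -0.16 without the high-GAPDH arrays), with arrays that overlapped only after adjustment for the covariate, and Pdk2, a kinase that restrains pyruvate oxidation, at -0.28 ± 0.183. Steap3, an iron reductase, scored 0.571 to 0.762 with triadimefon and 0.840 to 1.36 with myclobutanil. Its difference was -0.28 ± 0.0857 (unadjusted p 0.00288; -0.43 without the covariate), and it was among the 6 genes of smallest p on the lower side.

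Immune and stress genes gave a few differences at the unadjusted level. Cxcl9, an interferon-γ induced chemokine, scored 0.87, 0.86, 0.74, 0.76 and 0.86 with triadimefon and 0.58, 0.42, 0.50, 0.38 and 0.56 with myclobutanil. The arrays did not overlap, and the controls ran from 0.305 to 0.755. The difference was 0.38 ± 0.0977 (unadjusted p 0.000588), and a second probe set gave 0.38 ± 0.118. The interferon response list, 21 genes, had 16 differences above 0 and a median of 0.07, with no member at an unadjusted p under 0.05. Its median was -0.01 without the covariate (7 above 0) and 0.09 without the high-GAPDH arrays (17 above 0). Isg15, a ubiquitin-like interferon product, differed by 0.22 ± 0.109 (0.10 without the covariate). In the list of stress and early genes, 3 of 17 were higher at that level (0.83% of all genes were), among them Klf6 at 0.23 ± 0.0703 and Atf3 at 0.12 ± 0.0482, both transcription factors induced by injury. Without the covariate these were 0.10 and 0.06. Trib3, a pseudokinase of the unfolded protein response, differed by 0.20 ± 0.0823. Hspb1, a small heat shock protein, differed by 0.32 ± 0.123, and by -0.04 without the covariate. The unfolded protein response and heat shock lists had medians of -0.06 and -0.04 (-0.21 and -0.15 without the covariate).

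In the fit with the covariate the remaining lists lay close to the median of all genes. Acute phase genes (median -0.05 over 19), complement and coagulation (-0.05 over 24) and oxidative phosphorylation (-0.04 over 28) had no member at an unadjusted p under 0.05. Nor did the ribosomal proteins (0.00 over 19). Without the covariate their medians were -0.46, -0.43, -0.35 and -0.36, and without the high-GAPDH arrays 0.08, 0.09, 0.03 and 0.07. Steroid hormone metabolism, retinoid metabolism, the circadian clock and thyroid hormone handling had medians of -0.02, -0.03, -0.03 and -0.02. Other liver P450 genes had a median of -0.07 over 18 genes (-0.37 without the covariate, 0.03 without the high-GAPDH arrays). Male-biased and female-biased liver genes had medians of 0.01 and -0.04, and the male-biased genes were at -0.36 without the covariate and 0.15 without the high-GAPDH arrays. The growth hormone axis had a median of -0.04, in a list that holds Onecut1. Cell cycle genes had 4 of 24 differences above 0 and a median of -0.03, and 19 of the 24 had a slope past the threshold, against 36.2% above 0 and 48.4% with such a slope among all genes. Within this list Tk1, thymidine kinase, had the smallest p, at -0.10 ± 0.0454.

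**Figure D5:**
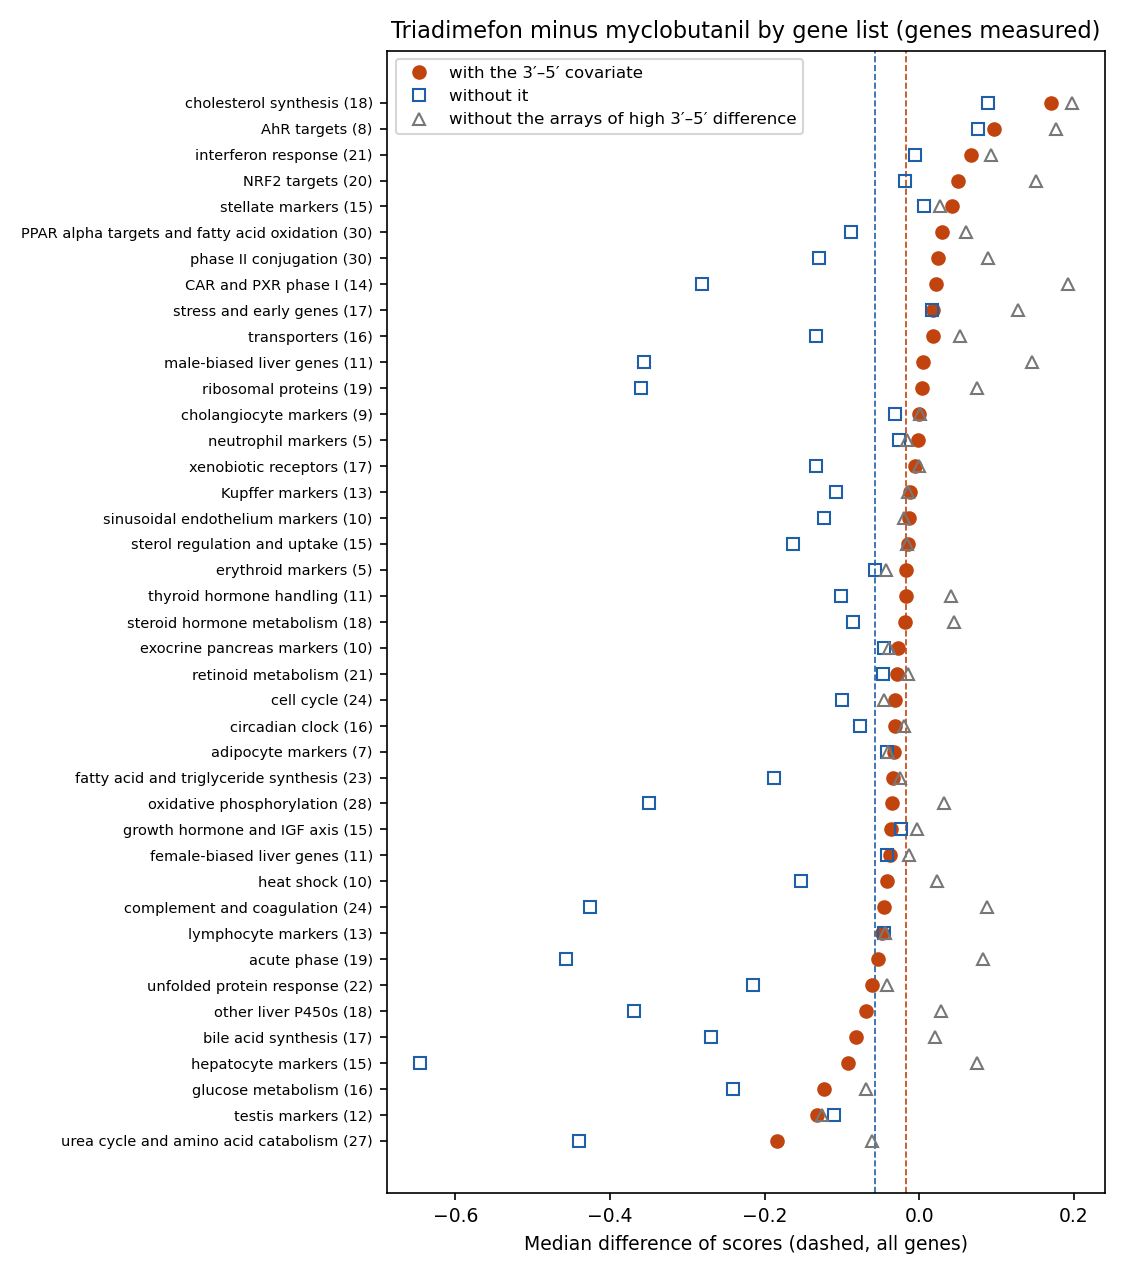
Median difference of scores between triadimefon and myclobutanil (horizontal axis) for each of the 41 gene lists, with the covariate (filled), without it (squares) and without the high-GAPDH arrays (triangles). Cholesterol synthesis is at the top with 0.17, 0.09 and 0.20, and the hepatocyte markers range from -0.65 without the covariate to 0.07 without those arrays.

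In the fit with the covariate, medians of the cell type markers lay within 0.1 of 0, except those of testis. In whole liver RNA, a change in the number of cells of a type and a change in RNA per cell cannot be told apart. The 15 hepatocyte markers had a median of -0.09, and their summed score ran from 57.5 to 64.2 with triadimefon and from 57.5 to 96.8 with myclobutanil. Medians were -0.01 for Kupffer cell (13 genes) and sinusoidal endothelial (10 genes) markers, 0.04 for stellate cell markers (15 genes) and -0.05 for lymphocyte markers (13 genes). Of the 15 stellate cell markers 11 had a difference above 0 and 4 below, among the latter Reln (-0.08) and Ecm1 (-0.04). Dcn and Rgs5, genes of stellate cells and pericytes, differed by 0.24 ± 0.102 and 0.13 ± 0.0482. These 2 were the stellate markers higher at an unadjusted p under 0.05 in limma (0.83% of all genes were). Both were dim, with mean scores of 0.33 and 0.08 with triadimefon and 0.02 and 0.01 with myclobutanil. 3 lymphocyte markers were lower at an unadjusted p under 0.05 (3.32% of all genes were), all at mean scores near or below 0, where the signal is dim. Cholangiocyte, erythroid, neutrophil, exocrine pancreas and adipocyte markers had medians between -0.03 and 0.

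The testis markers were examined because of the tissue named in the extraction protocol. All 12 had a difference below 0, with a median of -0.13 and none at an unadjusted p under 0.05. Their summed score ran from -0.0875 to 5.64 with triadimefon and from 1.07 to 6.84 with myclobutanil. Prm1, a sperm protamine, scored 1.10, 1.28, 2.15, 0.59 and 0.65 with triadimefon. It scored from 0.96 to 2.68 with myclobutanil, so the groups overlapped, and the controls ran from -0.27 to 1.71. Insl3, Star, Cyp11a1 and Cyp17a1, which mark the hormone-making Leydig cells, had mean scores from -0.31 to 0.15 in both groups. The part of any testis RNA in the results was not tested.

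Onecut1 belongs to the growth hormone list, and Onecut2, Slc25a30, Fabp7 and Ugt2b were named after their values were seen. Onecut1, a liver transcription factor also known as HNF6, scored 1.92, 2.38, 2.50, 1.14 and 1.90 with triadimefon and 2.76, 0.27, 1.47, 0.49 and 0.52 with myclobutanil. The control median was 2.49, and 4 of 5 myclobutanil arrays lay well below this median, as did triadimefon replicate 4. The controls ran from 1.08 to 2.85, a range that held myclobutanil replicate 3 and triadimefon replicate 4. The difference was 0.96 ± 0.465 (unadjusted p 0.0479), made up of -0.13 against the controls for triadimefon and -1.10 for myclobutanil. A second Onecut1 probe set gave 0.57 ± 0.283 (unadjusted p 0.0523 in limma). Onecut2, its relative, differed by 0.28 ± 0.160, and 2 of its probe sets had an adjusted p of 0.0428 without the animals numbered 3000 and above. Slc25a30, a mitochondrial carrier, differed by 0.94 ± 0.417, also with triadimefon near the controls (-0.09) and myclobutanil below them (-1.03). Fabp7, a fatty acid binding protein, differed by 0.74 ± 0.271, and by 0.37 without the covariate. On the lower side the largest was the gene annotated Ugt2b, a glucuronosyltransferase, at -1.18 ± 0.856, with an SD of 1.70 among the triadimefon and 1.49 among the myclobutanil arrays.

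Among genes with arrays that did not overlap, Casp12, a caspase of the endoplasmic reticulum, differed by 0.39 ± 0.148 and Socs2, a brake on growth hormone signalling, by 0.34 ± 0.183 (0.56 without the covariate and 0.53 without the high-GAPDH arrays). After adjustment for the covariate the Socs2 arrays overlapped. Of the 33 higher genes without overlap, 10 had an unadjusted p under 0.05 in limma, and of the 357 lower genes 150 did. Over all genes 0.83% were higher and 3.32% lower at that level. Both sets were picked on the same arrays, which favours a small p, so these counts are no separate support. 171 of the 357 lower genes had a mean score below 0, where 31.0% of all genes lie. 164 of them had a slope on the 3′–5′ difference past the threshold, against 48.4% of all genes. The genes of smallest p on the lower side, beside Steap3, scored near or below 0: Defb1 (a defensin), Neu3 (a sialidase), Hmmr, Lamb3 and Cenpe differed by -0.15, -0.11, -0.10, -0.14 and -0.09. On the higher side Zfp455l1 and Pcgf3 followed Sqle, Cxcl9 and Acat2, at 0.26 ± 0.0713 and 0.12 ± 0.0372.

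Against the controls, neither compound at 500 ppm passed the threshold at any probe set with the covariate: 0 of 31042 (0%) for triadimefon and 0 of 31042 (0%) for myclobutanil in limma. At an unadjusted p under 0.05 there were 1306 and 1918 probe sets. Without a covariate, 3 probe sets passed for triadimefon and 0 for myclobutanil, with 9108 and 1281 at an unadjusted p under 0.05. The controls and triadimefon differed in the 3′–5′ measure, and its part in these counts was not tested. Both comparisons share the control arrays. They differ in which compound stands away from the controls: for Sqle, Idi1, Acat2 and Cyp1a1 it was triadimefon (0.36, 0.60, 0.33 and 1.27, against -0.09, -0.10, 0.02 and 0.19). For Onecut1 and Slc25a30 it was myclobutanil. For Cyp2b, Ugt2b1 and Aldh1a1 both stood above the controls.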

How the data were processed

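Affymetrix rat genome arrays were hybridised with liver RNA of individual rats. Of 35 arrays 3 hold no values, and 32 entered the fit. The authors deposited 1 score per probe set and array; the sources used here do not state its summary method, scale or log base. The number of arrays limits the precision.

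57 Affymetrix control probe sets were left out, and 31042 were tested. Of these 20826 had 1 gene symbol in the platform annotation, 436 several and 9780 none. For 20758 of them the Entrez identifier was found in the RefSeq rat gene list, which altered 0 symbols. Each of 14217 genes was read from its probe set of highest mean score.

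The 3′–5′ difference (mean of GAPDH and β-actin) was a covariate beside the 7 groups in limma 3.58.1 (R 4.3.3, package data.table, version 1.17.8; lmFit and eBayes, 24 residual and 2.37 prior degrees of freedom). p-values were two-sided and adjusted by the Benjamini-Hochberg method over all probe sets (threshold 0.05). The code was tested on simulated data. The deposited score has no stated log scale, while the test was planned for log2 values; scores were used unchanged. Genes named were those of smallest p (6 in each direction), 2 of each of 41 lists and a set of xenobiotic genes, and the cholesterol members. Members, lists and alternatives were chosen with earlier results of these data known. The arrays are described as biological replicates in the series' design text.

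Alternatives changed the covariate, the arrays, the normalisation, the filter on dim probe sets, the variance model and weights. The main fit did not pair arrays by replicate number. Deviations of same-numbered arrays from their group means correlated at 0.354, -0.0748, 0.150, 0.171 and -0.159 for replicates 1 to 5. The largest correlations with a myclobutanil array of another number were 0.139, 0.228, 0.133, 0.150 and 0.297. On these deposited scores the same number thus gave the larger value for replicates 1, 3 and 4, but not for 2 and 5. On scores adjusted for the covariate, replicate 4 turned to 0.0809 against 0.278, and only replicates 1 and 3 kept the larger value. No pair of arrays in either group was identical.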

Additional observations from a re-analysis of the deposited data

Results flagged for a closer look

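Of 230 groups of 5 arrays examined (the named and cholesterol genes and the 3′–5′ difference), 18 held an array whose gap to the nearest other array passed Dixon's 95% value. Chance gives about 1 in 20.

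9 of the 10 in the myclobutanil group were replicate 1, the array of the largest 3′–5′ difference (2.45). Its scores were 6.82 for Cyp3a23-3a1, 5.10 for Hbb, 4.81 for Cox4i1, 4.03 for Cyb5r3, 3.40 for Sc5d and 3.11 for Tm7sf2. It also stood apart at 1.60 for Ces2c, 0.839 for Acat2 and -0.347 for Hmmr. Of these only Hmmr, a dim gene, was the lowest of its group. The other was replicate 4 for Abcc3, at -0.0554.

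In the triadimefon group replicate 1 stood apart for Rpl6 (3.51), Amy2a3 (0.392) and Epb42 (-0.198). Replicate 3 did so for Defb1 (-0.165), Plin1 (-0.150) and Spata19 (0.106), and replicate 4 for Thrb (1.11) and Lyve1 (1.31).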

How the results depend on the processing

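No probe set passed the adjusted threshold under most settings. The exceptions were the 10 arrays alone without the covariate, with 2 (Sqle and Ahctf1, adjusted p 0.0422), and animals numbered below 3000, with 3 (2 for Onecut2 and 1 for Idi1, adjusted p 0.0428), all higher with triadimefon; the cause was not tested. Leaving out single arrays gave 0 throughout, with 928 to 1537 probe sets at an unadjusted p under 0.05. The replicate number as a block gave 0 as well, with 1341 at an unadjusted p under 0.05 with the covariate and 5971 without. The cholesterol median stayed above 0, from 0.09 to 0.25, and from 0.13 to 0.21 when single arrays were left out. Cyp51 changed sign without the covariate.

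The 3′–5′ difference was -0.841 with GAPDH alone (exact permutation p 0.0476) and -0.548 with β-actin alone (0.0873). It ran from -0.867 to -0.385 when single arrays were left out, smallest without myclobutanil replicate 1. It passed the threshold without myclobutanil replicate 2 (-0.867) or 4 (-0.860). Leaving out any single triadimefon array gave an exact permutation p between 0.175 and 0.222. Quantile normalisation gave 11504 probe sets with a slope, 5992 upward and 5512 downward, against 11635 and 2990; the 10 arrays alone gave 10041.

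Against the controls the count reached 41 probe sets for triadimefon (quantile normalisation without the covariate) and 9 for myclobutanil (animals below 3000; 4 without its replicate 1). Scores near or below 0 are dim, and differences there are limited by the background.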
